A study of Mus musculus with 9 samples.

Results

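The enteric nervous system of the mouse small intestine was followed here through 35 genes, of 19360 in the deposited table, that are commonly used to recognize enteric neurons and enteric glia. The members were named by gene symbol, not by a threshold on measured values, though with earlier results of these data known, and all 35 were found. The libraries came from small sections of whole small intestine of WT Balb/c mice, 1 library for each mouse and 3 mice in each of 3 groups. In the 3pRNA + anti-IFNAR1 + TBI group, mice received an antibody that blocks the type I interferon receptor chain IFNAR1 48 h before total body irradiation (TBI, 9 Gy) and the RIG-I agonist 3pRNA, a 5′-triphosphate RNA, 24 h before it. The 3pRNA + TBI group received 3pRNA at the same time without the antibody, and the TBI group was irradiated only. Tissue of every group was taken 12 h after irradiation, so all 9 mice were irradiated, and neither an unirradiated group nor a group given carrier RNA or an isotype antibody was analysed here. The comparisons ask how RIG-I activation before irradiation, with and without interferon signaling, changed the RNA of the irradiated gut.

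The enteric nervous system is built from neural crest cells that settle in 2 networks of ganglia, the submucosal plexus under the mucosa and the myenteric plexus between the circular and longitudinal layers of smooth muscle. Its neurons control motility, secretion and blood flow, with acetylcholine and tachykinins as main excitatory transmitters and nitric oxide and VIP as main inhibitory ones, and enteric glia surround them. GDNF acting through GFRA1 and RET, and endothelin-3 acting through EDNRB, guide the formation of these networks. Several of the 35 genes are also used outside neurons, among them Erbb3 in epithelium, Ednrb in mesenchyme, Tac1 and Scg2 in enteroendocrine cells, and Sncg and S100b in adipocytes. In bulk tissue, fewer cells of a type and less RNA per cell cannot be told apart.

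Values are read counts after division by a size factor, 1 for each library, and are called scaled counts below. Libraries held between 6487053 and 19946586 reads in genes, so that 1 read was worth between 0.592 and 1.73 scaled counts. A mean of at least 10 scaled counts over the 9 libraries was required for a test, which 30 of the 35 members and 14199 of all genes passed. Changes are differences of log2(scaled count + 1) with their SE, and a gene was called when its adjusted p from limma was under 0.05 over all tested genes. Replicates were separate mice according to the study's methods.

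The TBI libraries did not form a tight group in these genes. The mean log2 level of the 30 tested members was 6.27, 5.48 and 6.21 in 3pRNA + anti-IFNAR1 + TBI replicates 1 to 3, 6.27, 6.13 and 6.35 in the 3pRNA + TBI replicates, and 4.61, 5.69 and 4.44 in the TBI replicates. TBI replicates 1 and 3 were the 2 lowest of all 9 libraries for 20 of 30 members, and TBI replicate 2 lay above both of them for 26 of 30. In the antibody group, replicate 2 lay below both of its group mates for 24 of 30. These counts were taken over the members only, without the share over all genes tested, so they do not set the members apart from other genes. Smooth muscle genes, fixed as a list of 11, moved with the members: their mean log2 level was 10.36, 9.61 and 10.29 in 3pRNA + anti-IFNAR1 + TBI, 10.09, 10.14 and 10.45 in 3pRNA + TBI, and 7.88, 9.85 and 7.85 in TBI. The part of tissue composition in the results below was not tested, and each count of called members is therefore also given with single libraries left out.

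**Figure D1:**
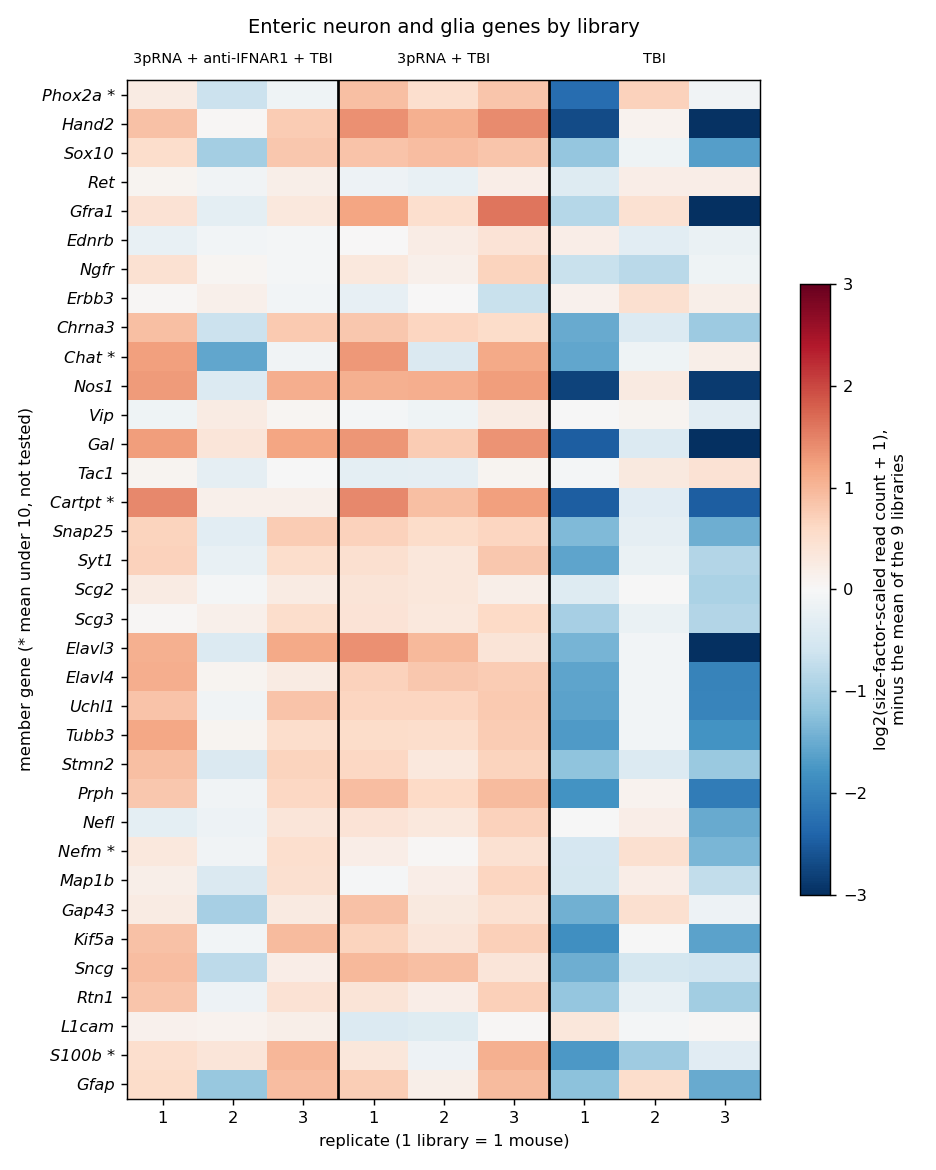
Level of each of the 35 members in each library, as log2(scaled count + 1) minus that gene's mean over the 9 libraries, in columns by group and replicate and in rows by role; colours saturate at 3 log2 units from the mean. TBI replicates 1 and 3 are the darkest blue columns, with TBI replicate 2 and 3pRNA + anti-IFNAR1 + TBI replicate 2 between them and the other 5 libraries, and Ret, Vip, Tac1, Erbb3 and L1cam stay near 0 or run the other way.

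Pretreatment with 3pRNA before irradiation went with higher levels of neuronal genes than irradiation alone. Of the 30 members tested, 14 rose in 3pRNA + TBI relative to TBI, none fell, and 16 were not called. Among all genes tested, 3.48% were called higher and 2.11% lower, which is 494 and 300 genes. With library totals made equal, which moved the median of all genes by 0.11, these were 803 and 175, and 16 members rose. The median change of the members was 1.43 on the log2 scale, with a range of −0.56 to 3.23, against a median of −0.02 over all genes. All 3 pretreated libraries lay above all 3 TBI libraries for 21 members and below them for 1, Erbb3, where 12.2% and 13% of all genes tested separated in these directions. At an unadjusted p under 0.05 there were 24 members, 21 of them higher, and 22.2% of all genes. With single libraries left out, no member was called without 3pRNA + TBI replicate 1, 3pRNA + TBI replicate 3 or TBI replicate 1, fits that called 0.979%, 1.23% and 1.29% of all genes. The count was 1 without TBI replicate 3, where 1.54% of all genes were called, and 4 without 3pRNA + anti-IFNAR1 + TBI replicate 3, where 3.91% were. It was 19, all higher, without TBI replicate 2, where 6.08% of all genes were called. It was 10 and 16 without 3pRNA + anti-IFNAR1 + TBI replicates 1 and 2, fits that called 4.14% and 5.11% of all genes. Without 3pRNA + TBI replicate 2, where 6.47% of all genes were called, 5 members were called higher and 1, Erbb3, lower, against 2.56% and 3.9% of all genes in these directions. The median change stayed between 1.21 and 1.76 in these fits.

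Transcription factors of the neural crest lineage were led by Hand2, which is needed for enteric neurons to mature and is also expressed in gut mesenchyme. Hand2 had 97.6, 53.2 and 89.7 scaled counts in the 3pRNA + anti-IFNAR1 + TBI mice, 137, 111 and 142 in the 3pRNA + TBI mice, and 7.28, 56.0 and 5.80 in the TBI mice. The pretreated and TBI groups did not overlap, although TBI replicate 2 was well above its group mates. Hand2 rose by 3.14 on the log2 scale (SE 0.64, adjusted p = 0.0251), 5.64-fold by group means. It shares 19.6% of its exon bases with the antisense gene Hand2os1, and without a stated strand setting the reads on these shared bases cannot be told apart. Sox10, which maintains neural crest cells and glia, had 14.1, 4.17 and 17.3 scaled counts in 3pRNA + anti-IFNAR1 + TBI, 17.8, 18.9 and 17.6 in 3pRNA + TBI, and 3.64, 8.49 and 2.32 in TBI. Its change of 1.86 (SE 0.55) did not pass the threshold (adjusted p = 0.0738), though the pretreated and TBI libraries did not overlap.

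The transmitter genes split into those that followed the other neuronal genes and those that did not. Gal encodes galanin, a neuropeptide of enteric neurons, and had the largest change among the members. It had 50.6, 27.1 and 48.3 scaled counts in 3pRNA + anti-IFNAR1 + TBI, 53.4, 36.1 and 54.9 in 3pRNA + TBI, and 2.91, 15.3 and 1.16 in TBI, from 97, 171 and 14 reads in these groups. Gal rose by 3.23 (SE 0.61, adjusted p = 0.0202), 7.46-fold by group means, and was the only member still called without TBI replicate 3. Nos1, the nitric oxide synthase of inhibitory motor neurons, had 99.98, 30.2 and 88.0 scaled counts in 3pRNA + anti-IFNAR1 + TBI, 85.5, 87.0 and 98.8 in 3pRNA + TBI, and 5.09, 49.2 and 4.64 in TBI. Nos1 rose by 2.93 (SE 0.73, adjusted p = 0.0447), with 7 and 4 reads in TBI replicates 1 and 3 and 29 in TBI replicate 2.

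Vip and Tac1 showed no such difference. Vip, the vasoactive intestinal peptide of inhibitory and secretomotor neurons, had 85.9, 112 and 98.4 scaled counts in 3pRNA + anti-IFNAR1 + TBI, 90.8, 86.4 and 112 in 3pRNA + TBI, and 93.1, 100.2 and 75.4 in TBI. The 3 groups overlapped, and the change of 3pRNA + TBI against TBI was 0.11 (SE 0.16, adjusted p = 0.758). Tac1, the precursor of substance P, had 239, 189.7 and 224 scaled counts in 3pRNA + anti-IFNAR1 + TBI, 186, 189 and 241 in 3pRNA + TBI, and 219.8, 280.2 and 305 in TBI. Its change was −0.38 (SE 0.15, adjusted p = 0.166), and the pretreated and TBI libraries overlapped. Enteroendocrine genes, a list of 12, kept a mean log2 level of 7.003 to 7.048 in 3pRNA + anti-IFNAR1 + TBI, 6.70 to 7.18 in 3pRNA + TBI and 6.83 to 7.11 in TBI, and by limma none of the 12 was called in 3pRNA + TBI against TBI or had an unadjusted p under 0.05.

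**Figure D2:**
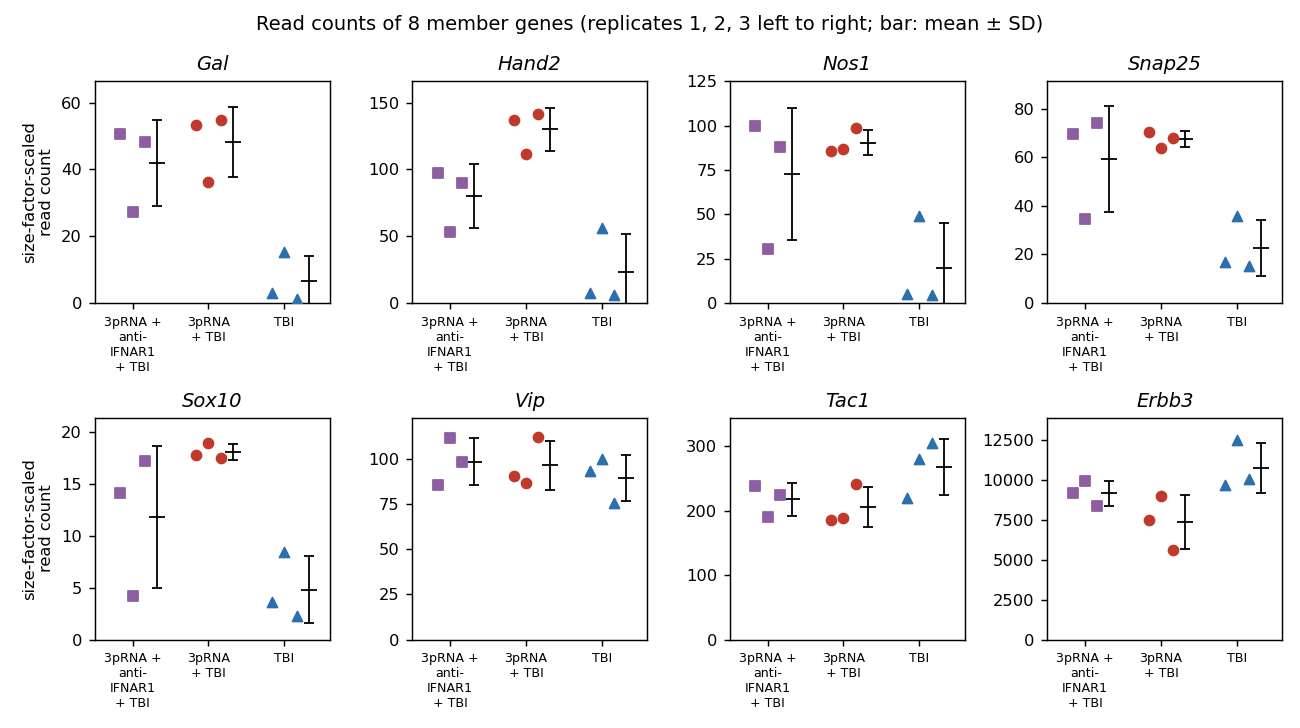
Scaled counts of 8 members in each mouse by group, on linear axes from 0, with replicates 1 to 3 from left to right and the mean ± SD beside them (bars are clipped at 0). Gal, Hand2, Nos1, Snap25 and Sox10 have all 3 pretreated mice above all 3 TBI mice, with TBI replicate 2 the highest of its group and antibody replicate 2 the lowest of its own, whereas Vip and Tac1 overlap and Erbb3 is lower in 3pRNA + TBI.

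The start regions of these genes are shown because Gal, Hand2 and Nos1, the called members with the largest changes, and Vip and Tac1, transmitter genes that did not follow them, could be set side by side after their values were seen. Windows from 250 bases before to 50 bases after the start of a gene, from RefSeq on GRCm38.p6, were matched to 26 of 35 members. Snap25, Kif5a, Nefl, Nefm, Ret, Erbb3, Gap43, Sox10 and Stmn2 were not matched. The Nos1 window lies at a start inside the gene, which begins at base 117781032 in the GENCODE annotation, so the first start of Nos1 is not shown. The Tac1 window was also taken from a start inside the gene, and the annotated first base, 7554879, falls within the window shown. Capitals mark TGACG on either strand (CGTCA where it lies on the other strand), the core of the cAMP response element that CREB family factors bind. This core also lies within the full palindrome TGACGTCA.
Gal, chr19:3414495-3414794, minus strand: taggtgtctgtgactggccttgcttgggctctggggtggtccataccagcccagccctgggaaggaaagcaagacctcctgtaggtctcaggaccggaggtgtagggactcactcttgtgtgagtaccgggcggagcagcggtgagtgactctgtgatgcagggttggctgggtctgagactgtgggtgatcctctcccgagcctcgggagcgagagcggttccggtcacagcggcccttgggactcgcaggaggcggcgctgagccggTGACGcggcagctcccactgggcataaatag
Hand2, chr8:57320733-57321032, plus strand: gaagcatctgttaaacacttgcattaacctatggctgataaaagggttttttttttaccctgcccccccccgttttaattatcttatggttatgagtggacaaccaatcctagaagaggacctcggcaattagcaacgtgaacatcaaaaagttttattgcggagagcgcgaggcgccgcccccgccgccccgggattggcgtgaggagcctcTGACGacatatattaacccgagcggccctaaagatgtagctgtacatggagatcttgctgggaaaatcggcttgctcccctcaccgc
Nos1, chr5:117866589-117866888, plus strand: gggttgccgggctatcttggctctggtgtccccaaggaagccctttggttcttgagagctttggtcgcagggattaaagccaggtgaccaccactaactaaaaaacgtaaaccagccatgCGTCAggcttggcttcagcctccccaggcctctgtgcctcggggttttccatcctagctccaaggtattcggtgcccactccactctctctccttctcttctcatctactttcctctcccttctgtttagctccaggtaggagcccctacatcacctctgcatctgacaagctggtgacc
Vip, chr10:5638968-5639267, plus strand: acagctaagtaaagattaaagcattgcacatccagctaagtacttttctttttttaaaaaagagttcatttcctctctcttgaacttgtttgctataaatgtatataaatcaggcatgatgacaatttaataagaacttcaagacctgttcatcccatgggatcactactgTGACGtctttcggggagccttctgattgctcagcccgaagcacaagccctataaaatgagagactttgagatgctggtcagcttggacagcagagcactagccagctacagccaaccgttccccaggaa
Tac1, chr6:7554811-7555110, plus strand: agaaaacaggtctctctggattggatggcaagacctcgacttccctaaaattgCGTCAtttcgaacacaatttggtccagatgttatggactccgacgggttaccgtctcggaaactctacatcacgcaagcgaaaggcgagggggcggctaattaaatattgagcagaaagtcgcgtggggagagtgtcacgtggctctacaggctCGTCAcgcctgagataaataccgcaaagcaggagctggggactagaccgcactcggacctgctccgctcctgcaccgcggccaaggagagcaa
The core was present in windows of 12 of the 26 members (14 of their 33 windows, since some have several starts) and in 20.8% of all 32851 windows. It stood in the windows shown for Gal, Hand2 and Nos1 and equally in those for Vip and Tac1. These 5 windows were picked after the values were seen and all hold the core, so they cannot show whether it separates genes that rose. Whether the core differed between called members and the rest was not tested. TGACGTCA was found in Scg2 and Cartpt among the members and in 1.79% of all windows.

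Of the 4 genes of synaptic and secretory vesicles, 3 rose and 1 was not called. Snap25, a SNARE protein of the presynaptic membrane, had 69.4, 34.4 and 74.2 scaled counts in 3pRNA + anti-IFNAR1 + TBI, 70.4, 63.9 and 68.0 in 3pRNA + TBI, and 16.7, 35.7 and 15.1 in TBI. The pretreated mice were close to each other and all above the TBI mice, and Snap25 rose by 1.65 (SE 0.35, adjusted p = 0.0283). Syt1, the calcium sensor of vesicle release, had 63.5, 33.4 and 57.0 scaled counts in 3pRNA + anti-IFNAR1 + TBI, 54.3, 49.7 and 69.1 in 3pRNA + TBI, and 12.4, 34.0 and 20.9 in TBI. It rose by 1.42 (SE 0.35, adjusted p = 0.0436). Scg3, a granin that sorts cargo into dense-core granules, had 40.0, 43.8 and 57.0 scaled counts in 3pRNA + anti-IFNAR1 + TBI, 52.5, 49.1 and 59.3 in 3pRNA + TBI, and 18.9, 34.0 and 20.9 in TBI. Its rise of 1.14 (SE 0.25, adjusted p = 0.0300) was the smallest among the called members. Scg2, another granin, had 212, 172 and 214 scaled counts in 3pRNA + anti-IFNAR1 + TBI, 235, 229 and 204 in 3pRNA + TBI, and 136, 178 and 91.6 in TBI. The 3pRNA + TBI and TBI libraries did not overlap, while the antibody libraries overlapped both, and the change of 0.76 (SE 0.20) missed the threshold (adjusted p = 0.0535).

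Both Hu proteins, RNA-binding proteins by which enteric neurons are usually counted under the microscope, had their lowest group mean in TBI. Elavl4 (HuD) had 47.0, 22.9 and 25.9 scaled counts in 3pRNA + anti-IFNAR1 + TBI, 35.6, 38.5 and 37.3 in 3pRNA + TBI, and 6.55, 20.4 and 4.64 in TBI. It rose by 1.98 (SE 0.46, adjusted p = 0.0352), and the pretreated mice differed from one another by less than 3 scaled counts. Elavl3 (HuC) ranged from 5.21 to 17.3 scaled counts in 3pRNA + anti-IFNAR1 + TBI, from 9.88 to 20.5 in 3pRNA + TBI and from 0 to 6.79 in TBI. Only 7 Elavl3 reads were counted in the 3 TBI libraries together, against 58 in 3pRNA + TBI, and its change of 2.42 (SE 0.74) was not called (adjusted p = 0.0783).

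Cytoskeletal, axonal and cell body genes held 7 of the 14 calls, among 11 members tested in this role. Uchl1 (PGP9.5), a ubiquitin hydrolase abundant in neurons, had 72.9, 36.5 and 72.5 scaled counts in 3pRNA + anti-IFNAR1 + TBI, 62.3, 62.2 and 69.1 in 3pRNA + TBI, and 12.4, 37.4 and 9.28 in TBI. It rose by 1.91 (SE 0.44, adjusted p = 0.0339), and 18.1% of its exon bases are shared with its antisense gene Uchl1os. Tubb3, the neuronal β-tubulin, had 69.4, 32.3 and 44.9 scaled counts in 3pRNA + anti-IFNAR1 + TBI, 45.4, 44.4 and 52.7 in 3pRNA + TBI, and 8.73, 28.9 and 8.12 in TBI. Tubb3 rose by 1.81 (SE 0.43, adjusted p = 0.0396), and here all 3 antibody libraries also lay above all TBI libraries. Prph encodes peripherin, an intermediate filament of peripheral neurons. It had 67.0, 35.4 and 58.7 scaled counts in 3pRNA + anti-IFNAR1 + TBI, 73.0, 58.0 and 74.6 in 3pRNA + TBI, and 10.2, 40.8 and 8.12 in TBI, and it rose by 2.09 (SE 0.49, adjusted p = 0.0352).

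Stmn2, a regulator of axonal microtubules, had 72.9, 28.1 and 62.1 scaled counts in 3pRNA + anti-IFNAR1 + TBI, 59.7, 48.5 and 61.4 in 3pRNA + TBI, and 16.01, 28.9 and 17.4 in TBI. It rose by 1.44 (SE 0.35, adjusted p = 0.0395), and the antibody replicate 2 value fell within the TBI range. Kif5a, a kinesin motor of axonal transport, had 82.3, 41.7 and 86.3 scaled counts in 3pRNA + anti-IFNAR1 + TBI, 71.2, 58.0 and 73.5 in 3pRNA + TBI, and 11.6, 44.1 and 13.9 in TBI. Its rise was 1.74 (SE 0.44, adjusted p = 0.0462). Rtn1, a reticulon of the neuronal endoplasmic reticulum, had 95.3, 48.0 and 72.5 scaled counts in 3pRNA + anti-IFNAR1 + TBI, 70.4, 61.0 and 88.9 in 3pRNA + TBI, and 23.3, 45.8 and 25.5 in TBI. It rose by 1.24 (SE 0.30, adjusted p = 0.0422), with no overlap of TBI with either of the other groups. Sncg, γ-synuclein, had 80.0, 24.0 and 48.3 scaled counts in 3pRNA + anti-IFNAR1 + TBI, 82.8, 79.3 and 53.8 in 3pRNA + TBI, and 14.6, 28.9 and 27.8 in TBI. Its rise of 1.59 (SE 0.41, adjusted p = 0.0472) came without the high TBI replicate 2 seen in the other called members, since TBI replicates 2 and 3 were nearly equal. Adipoq, the adipocyte hormone adiponectin, had 205, 0 and 27.6 scaled counts in 3pRNA + anti-IFNAR1 + TBI and 126, 214 and 81.2 in 3pRNA + TBI. It had 0 in each TBI library. The same 5 libraries were highest for Adipoq and for Sncg, but also for every other called member except Scg3, so this order is not particular to Sncg. The part of adipocytes in the Sncg values was not tested.

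The remaining members of this role were not called. Map1b, a microtubule-associated protein of growing axons, had 218, 142 and 269 scaled counts in 3pRNA + anti-IFNAR1 + TBI, 188, 219.7 and 299.6 in 3pRNA + TBI, and 133, 219 and 115 in TBI. Its change of 0.62 (SE 0.28) had an adjusted p of 0.219, and the groups overlapped. Gap43, found in growth cones, and Nefl, the light neurofilament, changed by 0.92 each (adjusted p = 0.324 and 0.280). L1cam, an adhesion molecule of axons and epithelium, ran the other way, with 405, 402 and 421 scaled counts in 3pRNA + anti-IFNAR1 + TBI, 281, 289 and 383 in 3pRNA + TBI, and 474, 358 and 381 in TBI. The change of −0.35 (SE 0.13) was not called (adjusted p = 0.152).

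By limma none of the 6 receptor genes was called in 3pRNA + TBI against TBI, and their changes ran from −0.56 to 2.34. Of the 6, 4 had an unadjusted p under 0.05, against 22.2% of all genes. Ret, the GDNF receptor kinase, had 111, 96.9 and 117 scaled counts in 3pRNA + anti-IFNAR1 + TBI, 94.4, 88.8 and 119.6 in 3pRNA + TBI, and 80.0, 121 and 119 in TBI. The groups overlapped, and the change was −0.07 (SE 0.18, adjusted p = 0.871). Gfra1, the co-receptor that binds GDNF for RET, spanned 16.7 to 28.2 scaled counts in 3pRNA + anti-IFNAR1 + TBI, 29.6 to 64.7 in 3pRNA + TBI and 1.16 to 28.9 in TBI. Its change of 2.34 (SE 0.75) had an adjusted p of 0.0924. Ednrb, the endothelin-3 receptor, had 165, 181 and 183 scaled counts in 3pRNA + anti-IFNAR1 + TBI, 192, 225 and 255 in 3pRNA + TBI, and 219, 155 and 167 in TBI, and its change was 0.32 (SE 0.15, adjusted p = 0.232).

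Ngfr, the low-affinity neurotrophin receptor p75, and Chrna3, a nicotinic acetylcholine receptor subunit of autonomic and enteric neurons, had pretreated libraries above all TBI libraries. Ngfr ranged from 38.0 to 55.3 scaled counts in 3pRNA + anti-IFNAR1 + TBI, from 44.4 to 63.6 in 3pRNA + TBI and from 22.1 to 36.0 in TBI, a change of 0.92 in 3pRNA + TBI against TBI (SE 0.25, adjusted p = 0.0536). Chrna3 ranged from 11.5 to 35.3 scaled counts in 3pRNA + anti-IFNAR1 + TBI, from 27.4 to 32.9 in 3pRNA + TBI and from 5.82 to 13.6 in TBI, a change of 1.67 (SE 0.43, adjusted p = 0.0501). Erbb3, the neuregulin receptor of glia that epithelium also expresses, had 9168, 9915 and 8403 scaled counts in 3pRNA + anti-IFNAR1 + TBI, 7498, 9029 and 5617 in 3pRNA + TBI, and 9699, 12533 and 10049.9 in TBI. It was the only member with every pretreated library under every TBI library, and its change of −0.56 (SE 0.16) missed the threshold (adjusted p = 0.0708). Epithelial genes mostly leaned the same way, with 8 of 9 tested below 0, 1 above at 0.33, and a median change of −0.23. By limma none was called, and 4 had an unadjusted p under 0.05, against 22.2% of all genes. All pretreated libraries lay under all TBI libraries for 5, against 13% of all genes. Among these 5 was the brush border phosphatase Alpi, with a change of −0.66 (SE 0.17, adjusted p = 0.0527).

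Glial and low members gave little to test. Gfap, the intermediate filament of glia, ranged from 6.25 to 29.3 scaled counts in 3pRNA + anti-IFNAR1 + TBI, from 17.2 to 29.6 in 3pRNA + TBI and from 4.64 to 22.1 in TBI, and its change of 1.36 (SE 0.62) was not called (adjusted p = 0.232). The minimum mean was missed by 5 members, which were left untested, namely Phox2a, Chat, Nefm, S100b and Cartpt. Cartpt, the precursor of the CART peptide, had 14.1, 5.21 and 5.18 scaled counts in 3pRNA + anti-IFNAR1 + TBI, 14.2, 9.47 and 12.1 in 3pRNA + TBI, and 0, 3.40 and 0 in TBI, where 2 reads were counted in all. Phox2a, a homeodomain factor of autonomic neurons, ranged from 2.08 to 4.70 in 3pRNA + anti-IFNAR1 + TBI, from 5.92 to 8.01 in 3pRNA + TBI and from 0 to 6.79 in TBI. S100b, a calcium-binding protein of glia, ranged from 6.25 to 10.4 in 3pRNA + anti-IFNAR1 + TBI, from 4.14 to 11.0 in 3pRNA + TBI and from 0.728 to 3.48 in TBI. Chat, which makes acetylcholine, had at most 6.23 scaled counts in any library, and Nefm, the medium neurofilament, at most 6.90. Nefl and Nefm overlap in the annotation, with 32.8% of the exon bases of Nefl shared, so that their counts are uncertain.

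Per kilobase of exon, averaged over all 9 libraries, Erbb3 stood highest among the members at 1513 scaled counts. Scg2 at 73.8, Tac1 at 67.8, Sncg at 57.3, L1cam at 51.3 and Ednrb at 45.4 followed, and Gal came next at 40.9. Hu genes were low on this scale, at 4.93 for Elavl4 and 1.51 for Elavl3, and Chat was lowest at 0.580.

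**Figure D3:**
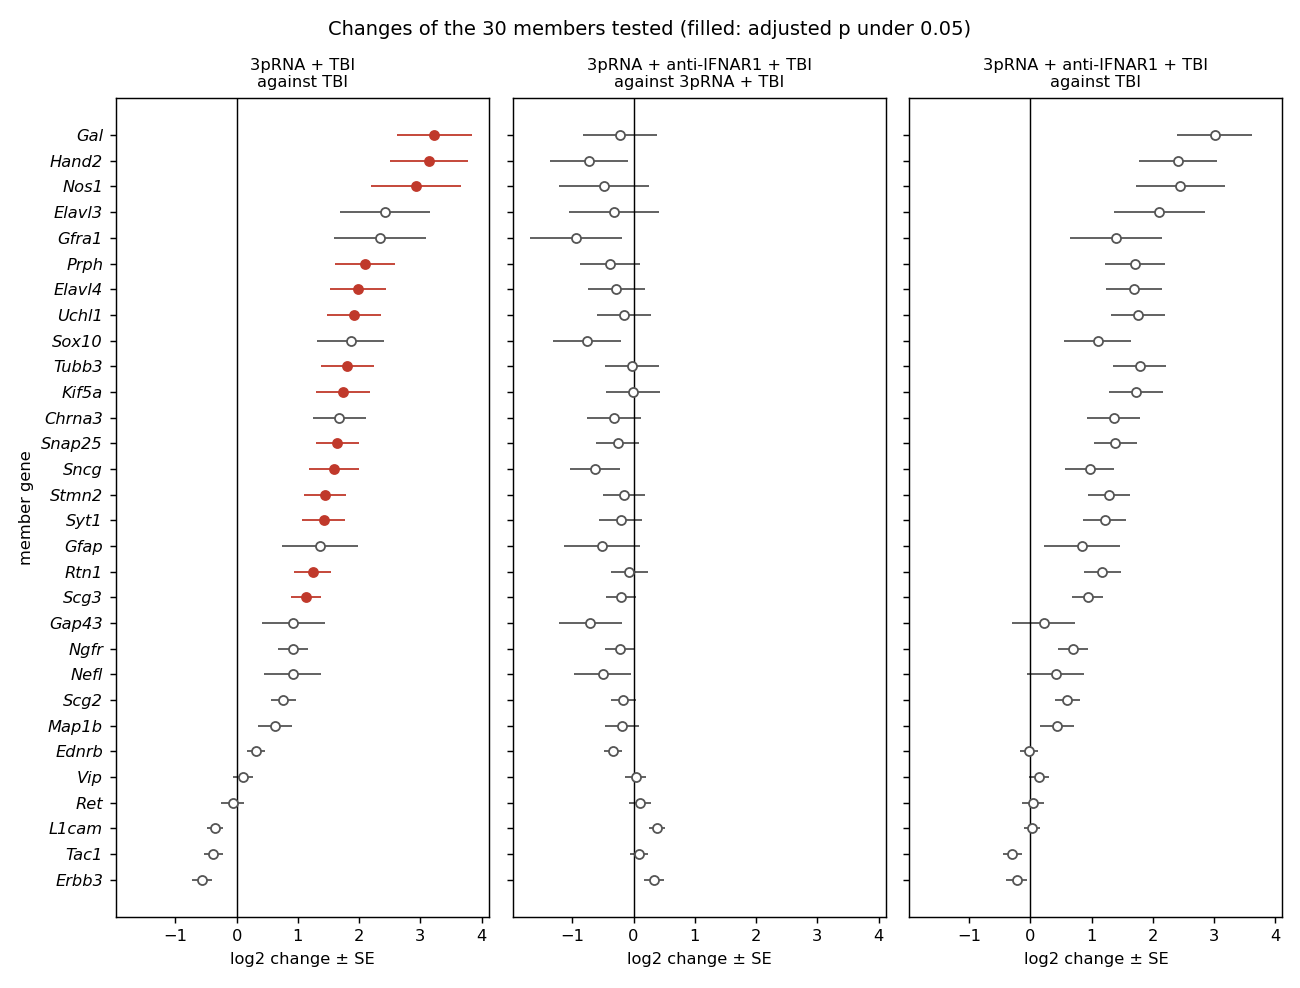
Change of each of the 30 members tested, as difference of log2(scaled count + 1) ± SE, in the 3 comparisons, ordered by the change in 3pRNA + TBI against TBI. Filled points mark the 14 members called, all in that comparison; the left and right panels share the TBI libraries and the left and middle panels share the 3pRNA + TBI libraries.

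Blocking IFNAR1 before 3pRNA was followed by no called change in these genes. In 3pRNA + anti-IFNAR1 + TBI against 3pRNA + TBI, 0 of 30 members were called by limma, 2 had an unadjusted p under 0.05 (3 with limma-voom, which also called 0), and the median change was −0.22. At that p the share was 10.6% over all genes, so that 2 of 30 members is not above the background. Across all genes, 0.19% were called higher and 1.23% lower in this comparison. The 2 members were L1cam, with a change of 0.38 (SE 0.13, adjusted p = 0.321), and Ednrb, with −0.34 (SE 0.15, adjusted p = 0.446). Antibody libraries lay above all 3pRNA + TBI libraries for L1cam and below them for 5 members, Ednrb, Sox10, Gap43, Gfra1 and Hand2, where 8.25% and 7.25% of all genes separated in these directions. Hand2 had the widest gap in level among these 5, with at most 97.6 scaled counts with the antibody against at least 111 in 3pRNA + TBI, and a change of −0.73 (SE 0.64, adjusted p = 0.772). The median change was 0.06 without antibody replicate 2, the library that lay below its group mates for 24 of 30 members.

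Mice given both antibody and 3pRNA were set against TBI alone as well. By limma, 0 of 30 members were called in 3pRNA + anti-IFNAR1 + TBI against TBI, and 0% of all genes were called in either direction. At an unadjusted p under 0.05 there were 18 members and 1753 of 14199 genes, and limma-voom called none and gave 17 members at that p. The members' median change was 1.13, against −0.02 over all genes, and 27 of 30 changes were above 0. Gal changed by 3.01 (SE 0.61, adjusted p = 0.186), Nos1 by 2.45 (SE 0.73, adjusted p = 0.221) and Hand2 by 2.41 (SE 0.64, adjusted p = 0.198). All antibody libraries lay above all TBI libraries for 6 members, Gal, Tubb3, Rtn1, Elavl4, Scg3 and Ngfr, and below them for none, where 7.01% and 12.1% of all genes did so. Without TBI replicate 2, 2.21% of all genes were called higher and 0.317% lower, against none with it. The members called in that fit were 13, all higher, namely Elavl4, Gal, Hand2, Kif5a, Nos1, Prph, Rtn1, Scg2, Scg3, Snap25, Syt1, Tubb3 and Uchl1. This comparison shares its TBI libraries with the one of 3pRNA + TBI against TBI, and its values are not a second measurement of the TBI level.

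The position of TBI replicate 2 was examined gene by gene. All 3 pretreated libraries lay above TBI replicate 2 alone for 22 of 30 members, and for 28.2% of all genes tested. When TBI replicates 1 and 3 were both left out, so that TBI was represented by 1 mouse assumed to vary like the other groups, the median change of 3pRNA + TBI against TBI was 0.67 and no member was called, against 0.711% of all genes. For Gal the change was then 1.57, and for Hand2 1.19.

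Further genes of the enteric nervous system, 47 listed beside the members and 25 of them tested, were read from a fixed list. In 3pRNA + TBI against TBI, 8 of the 25 were called higher and 0 lower, against 3.48% and 2.11% of all genes. By limma 16 had an unadjusted p under 0.05, all higher, against 22.2% of all genes, and the median change was 0.97. Vamp2, a vesicle SNARE also used outside neurons, rose by 0.60 (SE 0.09, adjusted p = 0.00951). Syn1, a synaptic vesicle phosphoprotein, rose by 2.15 (SE 0.44, adjusted p = 0.0251), and Stmn3, a relative of Stmn2, by 1.96 (SE 0.40, adjusted p = 0.0251). Among growth factors and ligands of this system, 6 were tested and 1 was called, the RET ligand Nrtn (neurturin), which rose by 1.52 (SE 0.37, adjusted p = 0.0408). Edn3, the ligand of EDNRB, had a change of −0.20 (SE 0.11, adjusted p = 0.302).

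Markers of the outer wall moved with the members to differing degrees, and their part in the differences was not tested. Smooth muscle had 6 of 11 genes called higher in 3pRNA + TBI against TBI, where 3.48% of all genes were, and a median change of 1.88. Smtn, encoding smoothelin of contractile muscle, rose by 1.43 (SE 0.30, adjusted p = 0.0264), Lmod1 by 2.19 (SE 0.50, adjusted p = 0.0330), and Acta2, the smooth muscle actin, by 1.38 (SE 0.32, adjusted p = 0.0338). The members' mean log2 level minus that of smooth muscle was −4.12 to −4.08 in 3pRNA + anti-IFNAR1 + TBI, −4.09 to −3.82 in 3pRNA + TBI, and −3.27, −4.16 and −3.41 in TBI replicates 1 to 3. On this within-library scale TBI replicates 1 and 3 were the highest of the 9 libraries and TBI replicate 2 the lowest. The member mean takes in genes that did not rise in 3pRNA + TBI, namely Ret (−0.07), Vip (0.11), Tac1 (−0.38), Erbb3 (−0.56) and L1cam (−0.35). Their part in this order was not tested, so the order does not show that neuron genes changed less than smooth muscle genes. Interstitial cells of Cajal, the pacemaker cells beside the myenteric plexus, had 0 of 3 genes called. By limma all 3 had an unadjusted p under 0.05, against 22.2% of all genes, and Kit changed by 0.34 (SE 0.12, adjusted p = 0.140).

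Mesothelial genes, which mark the outermost serosal layer, had a mean log2 level of 4.69 to 5.43 in 3pRNA + anti-IFNAR1 + TBI, 4.78 to 6.28 in 3pRNA + TBI, and 1.70, 5.94 and 2.18 in TBI replicates 1 to 3. Upk3b had 65.9, 30.2 and 50.1 scaled counts in 3pRNA + anti-IFNAR1 + TBI, 57.9, 32.6 and 128 in 3pRNA + TBI, and 0, 93.4 and 0 in TBI. These genes set TBI replicate 2 apart from its group mates as the members did. Unlike in the members, TBI replicate 2 lay within the range of the 3pRNA + TBI libraries. By limma, 0 of the 4 tested were called in 3pRNA + TBI against TBI and 3 had an unadjusted p under 0.05, against 22.2% of all genes. For all 4 the libraries of these groups overlapped. Adipocyte genes had a mean log2 level of 7.90, 3.27 and 6.09 in 3pRNA + anti-IFNAR1 + TBI, 6.93 to 8.03 in 3pRNA + TBI and 2.595 to 3.123 in TBI. In 3pRNA + TBI against TBI, 8 of 10 were called higher, against 3.48% of all genes. Several of them were at 0 in every TBI library, so they passed the minimum mean only through the other groups and could only be called higher. Unlike the members, adipocyte genes were low in TBI replicate 2 as well, with 6 of 10 at 0 there. Fibroblast genes had 1 of 8 called, Dcn. Epithelial genes had a mean log2 level of 14.51 to 14.70 in 3pRNA + anti-IFNAR1 + TBI, 14.21 to 14.64 in 3pRNA + TBI and 14.57 to 14.96 in TBI.

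**Figure D4:**
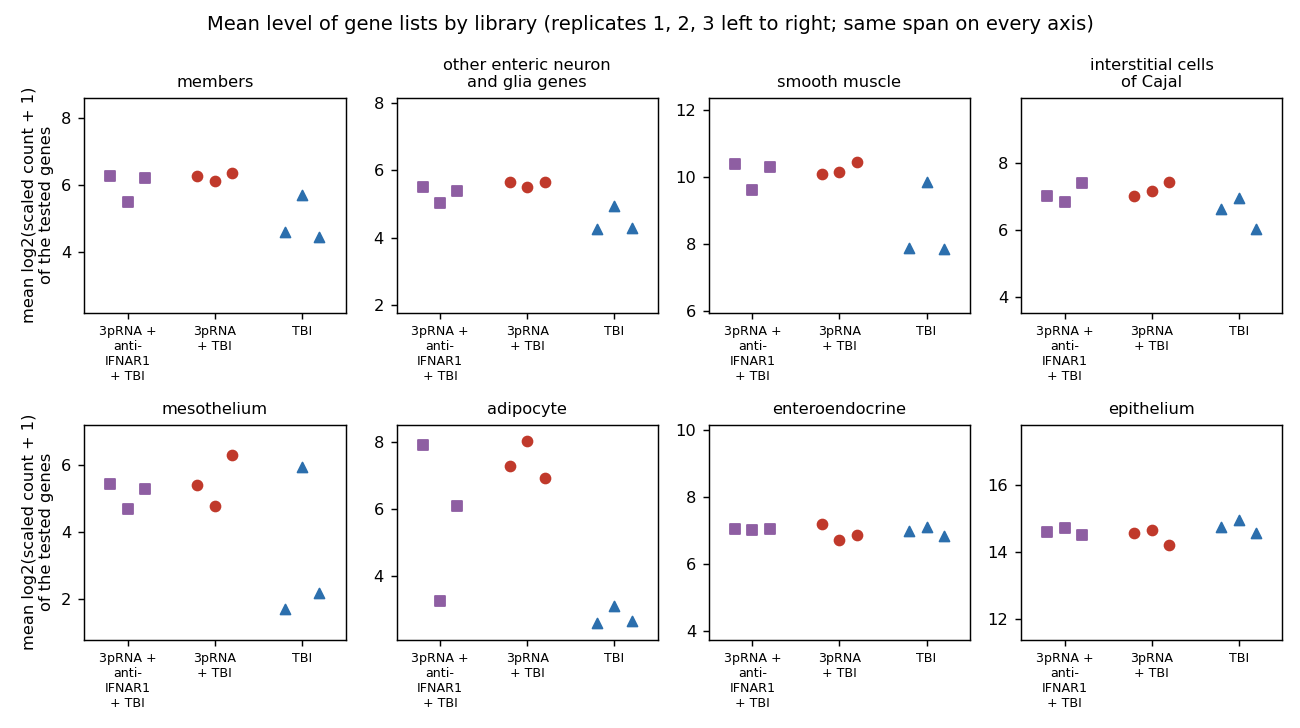
Mean log2(scaled count + 1) of the tested genes of 8 lists in each library, by group with replicates 1 to 3 from left to right; every panel spans the same range of log2 units. TBI replicates 1 and 3 are low in the members, the other enteric genes, smooth muscle and mesothelium, all 3 TBI replicates are low in adipocyte genes, enteroendocrine genes are level, and epithelial genes lie between 14.21 and 14.96 in every library.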

How the data were processed

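RNA of small intestine from 9 mice was sequenced as poly(A) libraries on an Illumina HiSeq2500. The authors aligned reads with STAR in 2 passes and counted them per gene with HTSeq; the submitters' notes name build mm9, and the sources used here state no versions, strand setting or gene models. The signal deposited by the authors is this count over a DESeq size factor, plus 1. In every column the values minus 1 were whole multiples of 1 step, to a tolerance of 0.02 reads, which gives the depth. The deposited tables of the authors' own comparisons (adjusted p-values, log2 ratios and group means) were not used.

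After subtraction of 1, log2(value + 1) of genes with a mean of at least 10 was fitted over all 9 libraries with limma 3.58.1 (trend; R 4.3.3), with Benjamini-Hochberg adjustment over 14199 genes; the procedure was tested on simulated data. All members are named, per-library values are given for members called in any comparison or among the 10 highest means, and at most 4 genes of any other list, by smallest p in 3pRNA + TBI against TBI; single further values were chosen after they were seen. One gene that this rule names is not reported here. Members, lists and tests were chosen with earlier results of these data known. Exon lengths and overlaps are from GENCODE on GRCm38, used for no coordinates of the mm9 data.

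Alternatives were a pseudocount of 5, no filter, 2 other scalings, a replicate block, single libraries left out, TBI replicates 1 and 3 both left out, and limma-voom on recovered reads, the last chosen after seeing the data. Groups of 3 cannot reach an exact permutation p under 0.1, so no single-gene permutation test is given.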

Additional observations from a re-analysis of the deposited data

How the results depend on the processing

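In 3pRNA + TBI against TBI, 15 to 17 members were called with a pseudocount of 5, without a filter, with equal library totals, with TMM scaling and with limma-voom (chosen after seeing the data), against 14. The 14 were among those called under each of these 5 settings. Without a filter the added member was Cartpt. Equal library totals moved the median of all genes by 0.11 and split the calls into 803 higher and 175 lower, against 494 and 300, while the members' median above that of all genes was 1.45 in place of 1.46. Leaving out 1 library gave 0 to 19 members, median changes of 1.21 to 1.76 and 139 to 918 of all genes. Leaving out TBI replicates 1 and 3 gave 0 members, a median of 0.67 and 101 of all genes. The cause of these losses was not tested.

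In 3pRNA + anti-IFNAR1 + TBI against 3pRNA + TBI, 0 members were called in every fit, with 91 to 222 of all genes and median changes of −0.38 to 0.06 when 1 library was left out. In 3pRNA + anti-IFNAR1 + TBI against TBI, leaving out 1 library gave 0 to 13 members, medians of 0.93 to 1.498 and 0 to 359 of all genes (359 without TBI replicate 2, 9 without antibody replicate 2, otherwise 0), and leaving out TBI replicates 1 and 3 gave a median of 0.41.

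The labels tie no mice together by replicate number. Deviations of same-numbered libraries correlated above 0.1 in 5 of 9 pairs (−0.19 to 0.34) and those of other pairs in 5 of 18 (−0.42 to 0.23), so the numbers were not taken as pairs, which needed every same-numbered pair above 0.1. With the replicate block, 15 members (14 higher, without Kif5a and Sncg, and Erbb3 lower) and 1223 genes were called in 3pRNA + TBI against TBI, and 1 gene in 3pRNA + anti-IFNAR1 + TBI against TBI. Among single members, 1269 of 1440 refitted values kept their direction and stayed called or uncalled, and most of these were uncalled in both fits. A call was lost in 94, all in 3pRNA + TBI against TBI, the only comparison with called members. No called change reversed. A planned edgeR quasi-likelihood fit was not run, and limma-voom was the test on the recovered reads. Members with few reads, such as Elavl3 with 7 in TBI, limit what this depth can show.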
